A study of Mus musculus with 2 samples.

Results

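The 10 genes of the Eph receptor and ephrin system described here were followed in bone marrow mesenchymal stem/progenitor cells (MSPC), the stromal cells that give rise to bone, cartilage and fat. They were taken by gene symbol from the 35275 genes of a table of RNA sequencing read counts, and all 10 were found: the class A receptors Epha2, Epha3, Epha4, Epha5 and Epha7, the class B receptors Ephb2, Ephb3 and Ephb4, and the class B ephrins Efnb1 and Efnb2. The control was 1 library from Ptpn11+/+ mice and the mutant 1 library from Ptpn11E76K/+ mice, in which one copy of Ptpn11, the gene of the phosphatase SHP2, carries the activating change E76K. Both kinds of mice were C57BL/6 and carried Nestin-Cre, a recombinase driven by regulatory sequence of the nestin gene, which is active in nestin-positive stromal cells and also in the nervous system. Both libraries came from marrow cells sorted as positive for CD140 and Sca-1 and negative for CD45, Ter-119 and CD31. The sources used here do not give age, sex or the number of animals behind each library, and the design text mentions a pair of replicates where the table has 1 column per genotype.

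Eph receptors are the largest family of receptor tyrosine kinases, and their ligands, the ephrins, are fixed to the surface of neighbouring cells. Class A ephrins are held by a lipid anchor and class B ephrins span the membrane, so that contact between cells can start a forward signal in the cell with the receptor and a reverse signal in the cell with the ephrin. The system is known for repulsion and sorting of cells, for the separation of arteries from veins, and in bone for contacts between osteoclasts and osteoblasts through ephrin-B2 and EphB4. Epha2 is also known as a gene that RAS-ERK signalling, the pathway in which SHP2 acts, can induce.

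Library totals were 22328659 (control) and 18010963 (mutant) counts. Levels are given as CPM, counts scaled to library size, here with TMM factors. A ratio is the mutant over the control level, with a 95% exact Clopper-Pearson interval that covers counting error only. Since each genotype has 1 library, the spread between animals is unknown and no test was made, and each difference is one between 2 libraries. A gene was called measured at 20 or more counts over both libraries, and called higher or lower where its whole interval lay beyond 2-fold. Of the sort genes, Pdgfra had 2073 control and 1792 mutant counts, Pdgfrb had 6075 and 3721, and Ly6a, the gene of Sca-1, had 2177 and 612. The 10 markers of MSPC and marrow stroma summed to 8033 and 7661 CPM, of which Vim alone held 6613 and 6352 CPM. Lepr, also on this list, had 7 and 4 counts, too few to be called measured. The measured markers moved both ways, with Nes (2.76-fold) and Thy1 (2.57-fold) called higher in the mutant library. Cxcl12 (3.39-fold), Prrx1 (2.75-fold) and Ly6a (2.67-fold) were called lower there. Nes is also the gene whose regulatory sequence drives the Cre. The part of these differences in those of the Eph and ephrin genes was not tested.

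Of the 10 genes, 7 were measured. Epha2 was called higher in the mutant library, Epha4 and Efnb1 were called lower, and Epha3, Ephb3, Ephb4 and Efnb2 were not called. By the same rule 6.98% of the 13142 measured genes were called higher and 8.29% lower, together 15.3%. The median log2 ratio was -0.59 for the 7 genes and 0.01 for all measured genes. Epha3 and Epha4 had under 20 counts in the mutant library alone and reached the minimum with their control counts. In bulk RNA, fewer cells that express a gene and less RNA per cell cannot be told apart.

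**Figure D1:**
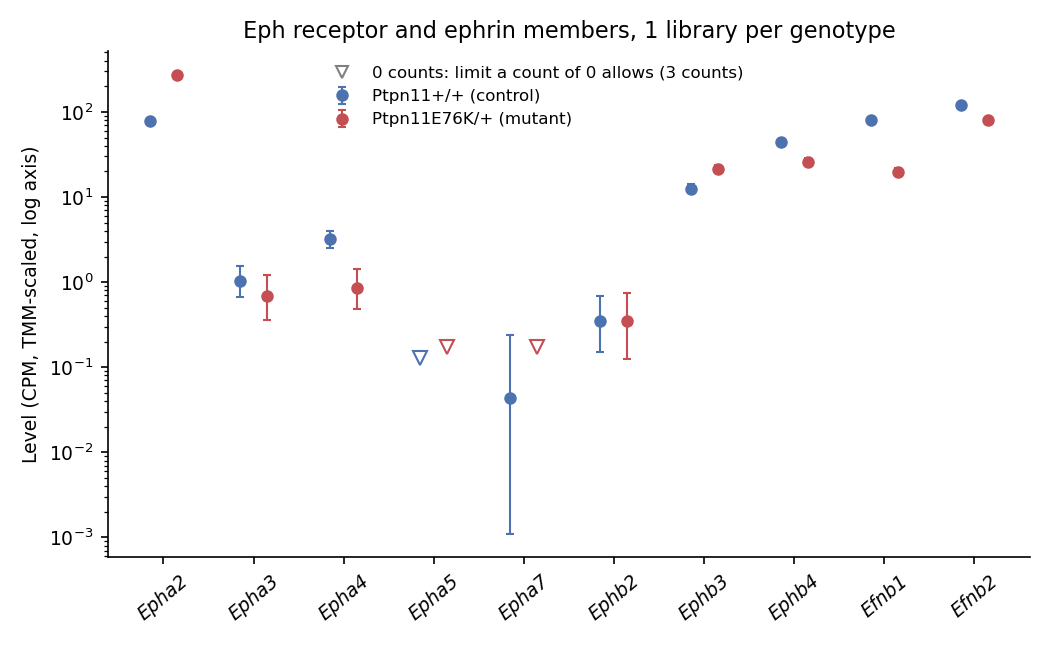
Levels of the 10 genes in CPM on a log axis, with 1 point per library (blue control, red mutant) and bars for the 95% exact Poisson interval; open triangles mark 0 counts, drawn at the limit of 3 counts. Epha2 stands at 272.7 CPM in the mutant against 79.0 CPM in the control, Efnb1 at 19.6 against 81.4 CPM, and Epha5, Epha7 and Ephb2 lie below 1 CPM in both.

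The promoter windows of the 3 called genes are shown because these are the genes that passed the call rule, Epha2 upward and Epha4 and Efnb1 downward. Each runs 5′ to 3′ along the gene from 250 bases before to 50 bases after the RefSeq start, on GRCm38.p6, a later build than the mm9 that the submitters name. The window of Epha2 is chr4:141300971-141301270 (+ strand), that of Epha4 chr1:77515039-77515338 (- strand) and that of Efnb1 chrX:99135811-99136110 (+ strand). Capitals mark each match, on either strand, to one of 4 motifs: the cyclic AMP response element TGACGTCA, the AP-1 element TGANTCA, the CCAAT box CCAAT and the GC box GGGCGG.
Epha2: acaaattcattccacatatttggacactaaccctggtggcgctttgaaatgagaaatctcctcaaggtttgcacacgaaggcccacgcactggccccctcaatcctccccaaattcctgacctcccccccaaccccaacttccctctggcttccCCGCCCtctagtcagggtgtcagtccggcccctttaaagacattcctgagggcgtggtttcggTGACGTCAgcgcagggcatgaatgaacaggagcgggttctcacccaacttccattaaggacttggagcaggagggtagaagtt
Epha4: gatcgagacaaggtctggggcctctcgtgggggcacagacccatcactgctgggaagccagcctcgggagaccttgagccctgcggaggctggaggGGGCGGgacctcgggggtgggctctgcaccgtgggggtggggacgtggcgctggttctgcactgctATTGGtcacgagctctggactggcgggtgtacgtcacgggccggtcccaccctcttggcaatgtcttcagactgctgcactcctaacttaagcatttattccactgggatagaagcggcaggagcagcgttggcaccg
Efnb1: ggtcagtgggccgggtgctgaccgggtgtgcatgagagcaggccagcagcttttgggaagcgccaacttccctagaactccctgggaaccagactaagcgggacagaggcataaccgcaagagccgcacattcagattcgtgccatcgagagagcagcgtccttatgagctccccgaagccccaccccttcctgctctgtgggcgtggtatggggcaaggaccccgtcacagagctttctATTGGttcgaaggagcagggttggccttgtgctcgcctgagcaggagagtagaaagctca

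In the Epha2 window the cyclic AMP response element begins 33 bases before the start, and a GC box on the other strand begins 96 bases before it. The full element was in 588 of the 32851 windows of all genes (1.79%) and in no other of the 11 windows of the 10 genes. The AP-1 element was in none of those 11 windows and in 7.81% of all windows. The Epha4 window holds a GC box 154 bases before the start and, on the other strand, a CCAAT box 88 bases before it. The Efnb1 window holds a CCAAT box, also on the other strand, 10 bases before the start. A CCAAT box was in 37.4% and a GC box in 35.7% of all windows. Among the 11 windows of the 10 genes, 7 held a CCAAT box and 8 a GC box. The windows of Efnb2 and Ephb4, which were not called, held both. The motifs were chosen after the windows were seen, a match is a string of letters and not a site of binding, and these counts say nothing of which factor acts there.

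Epha2 encodes a receptor that binds class A ephrins, ephrin-A1 foremost. It had 1828 control and 4741 mutant counts, or 79.0 CPM (75.5 to 82.7) and 272.7 CPM (265 to 280.5, exact Poisson intervals). The mutant level was 3.45-fold higher (3.27 to 3.64), and 96.4% of measured genes had a lower log2 ratio. Epha2 was the only one of the 10 genes called higher, and the level intervals of the libraries were far apart.

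Epha4, a receptor that binds ephrins of both classes, had 74 and 15 counts in control and mutant, or 3.20 and 0.863 CPM. It was 3.71-fold lower in the mutant library (2.11 to 6.96). The call sits near its threshold: without the trends of the ratio over transcript length and GC content the fold was 3.17 (1.80 to 5.94), which is no longer wholly beyond 2-fold, and the call was also lost with a 99% interval. Epha3, another class A receptor, had 24 and 12 counts, and its ratio of 0.665 (0.303 to 1.38) has an interval that includes equality.

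Epha5 and Epha7, receptors best known from axon guidance, were at or near 0. Epha5 had 0 counts in either library, where a floor of 3 counts (counting error only) corresponds to 0.130 and 0.173 CPM. Epha7 had 1 and 0 counts. No fold is given for either.

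Among the class B receptors, Ephb4, whose main ligand is ephrin-B2, had 1018 and 451 counts, or 44.0 and 25.9 CPM. It was 1.70-fold lower in the mutant (1.52 to 1.90), an interval that lies between equality and 2-fold. Ephb3 went the other way. It had 291 and 372 counts, or 12.6 and 21.4 CPM, and was 1.70-fold higher (1.46 to 1.99), with the upper bound just short of 2-fold. Ephb2 had 8 and 6 counts, too few to be called measured, with a ratio of 0.998 (0.285 to 3.28). The 3 class B receptors among the 10 genes thus showed a lower, a higher and an unresolved level, in that order.

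Efnb1, an X-linked ephrin needed for the shaping of the skull and limbs, had 1882 control and 340 mutant counts, or 81.4 CPM (77.7 to 85.1) and 19.6 CPM (17.5 to 21.8). It was 4.16-fold lower in the mutant (3.71 to 4.69), the largest fold of the 7 measured genes, although its interval lies within that of Epha4. Efnb2, the arterial ephrin and partner of EphB4, had 2780 and 1391 counts, or 120.2 and 80.0 CPM. It was 1.5-fold lower (1.41 to 1.60) and was not called. Both of these ephrins were lower in the mutant library, and their folds had intervals that did not overlap.

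The other 12 genes of the family were set beside the 10. Of these, 8 were measured, and 0 were called higher and 4 lower, with a median log2 ratio of -1.27. This median was -0.80 with no minimum count and -1.48 at a minimum of 100 counts. Ephb6, a receptor without kinase activity, (4614 and 389 counts) was 8.92-fold lower in the mutant (8.04 to 9.92). Epha1 (620 and 46 counts) was 10.1-fold lower (7.50 to 14.0). Its exons overlap those of Zyx on the opposite strand, a far more abundant gene with 43801 and 16543 counts. The strand setting of the counting is not given, so reads in the stretch that Epha1 and Zyx share cannot be told apart. Of the class A ephrins, Efna4 (325 and 87 counts) was 2.81-fold lower (2.21 to 3.60) and Efna5 (415 and 112) 2.79-fold lower (2.26 to 3.46).

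Efna1, the main ligand of EphA2, with 417 and 216 counts, was 1.45-fold lower (1.23 to 1.72) without being called. Efna2 (26 and 9 counts) and Efna3 (33 and 23) had intervals that include equality. Efnb3 had 27 and 52 counts and was 2.56-fold higher (1.58 to 4.24), not called. Epha6 had 0 and 1 counts, Epha10 had 1 in each, and Epha8 and Ephb1 had 0 in both. Over all 22 genes of the family, 15 were measured, and Epha2 was the 1 gene called higher against 6 called lower, where 6.98% of all measured genes were called higher and 8.29% lower.

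**Figure D2:**
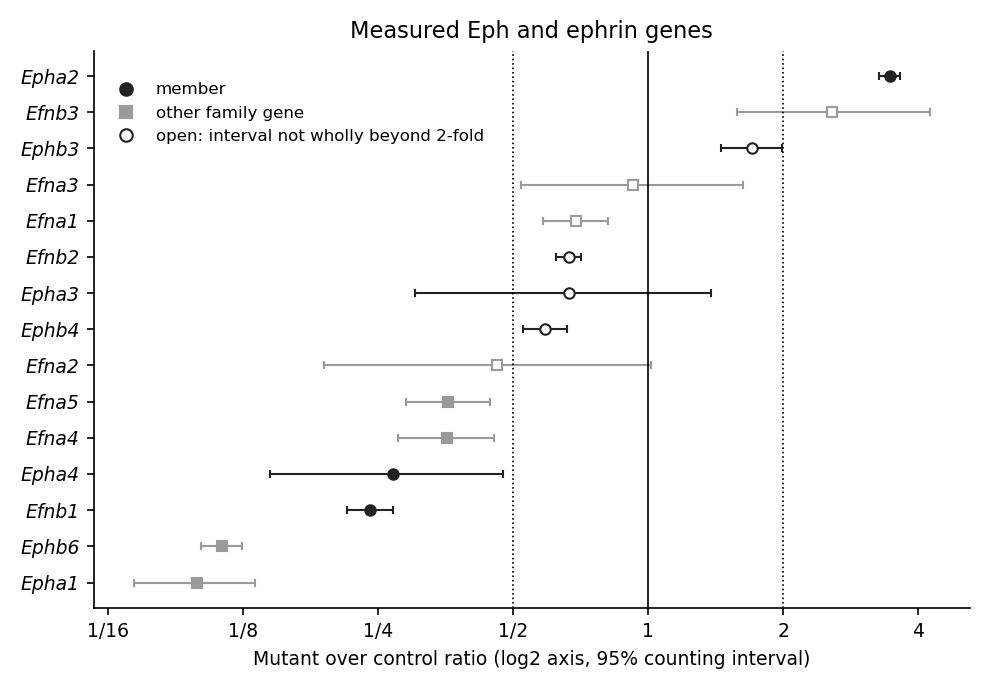
Mutant over control ratio of the 15 measured Eph and ephrin genes on a log2 axis, with 95% counting intervals; dotted lines mark 2-fold in either direction and filled points are called. Epha2 alone has its interval wholly above 2-fold, Efnb1 and Epha4 have theirs wholly left of the lower dotted line, and Ephb6 and Epha1 lie farthest to the left, at ratios of 0.112 and 0.0987.

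Levels of different genes were compared as CPM per kilobase of the longest annotated transcript. In the control library Ephb6 stood first with 53.0 CPM per kilobase, followed by Efnb2 (25.1) and Efnb1 (25.0), whose intervals overlapped, and by Epha2 (20.2). Ephb4 (10.1) and then Ephb3 (2.65) followed among the 10 genes, and Epha4 (0.506), Epha3 (0.183) and Ephb2 (0.0317) were the lowest detected with more than 1 count. The order differed in the mutant library. Epha2 stood first with 69.7 CPM per kilobase, followed by Efnb2 (16.7) and Efna1 (7.61), and the intervals of Efnb1 (6.00), Ephb4 (5.98) and Ephb6 (5.95) overlapped. Ephb3 (4.51) came next, and Epha4 (0.136) and Epha3 (0.122) overlapped.

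Epha2 made up 21.3% of the summed per-length level of the 14 Eph receptors in the control (20.4 to 22.1, counting interval from the delta method) and 79.9% in the mutant (78.9 to 80.9). Ephb6 made up 55.9% and 6.82%. Within the class A receptors Epha2 was already the main one, with 69.4% in the control and 98.5% in the mutant. Among the 8 ephrins, Efnb1 made up 32.9% of the summed per-length level in the control (31.7 to 34.2) and 16.3% in the mutant (14.8 to 18.0), while Efnb2 made up 33.1% (31.9 to 34.2) and 45.4% (43.2 to 47.6). The receptor transcripts of the mutant library were thus mostly Epha2, and those of the control mostly Ephb6. With the mean length of all annotated transcripts in place of the longest, Epha2 made up 23.8% and 84.8% of the receptors, and Ephb6 and Epha2 again stood first in control and mutant, but Epha2 then stood ahead of Efnb2 and Efnb1 in the control. In the mutant Ephb6 (15.98), Efnb1 (9.62) and Ephb3 (8.82) then stood ahead of Ephb4 (6.47).

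**Figure D3:**
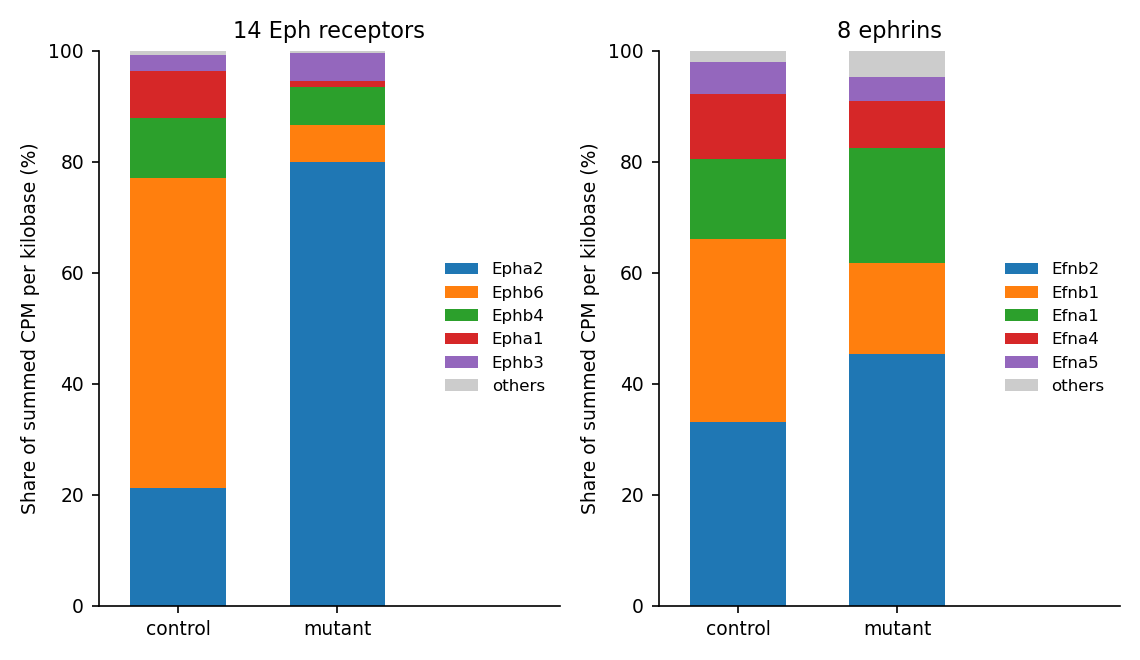
Share of the summed CPM per kilobase taken by each gene among the 14 Eph receptors (left) and the 8 ephrins (right), with 1 stacked bar per library and the smaller genes pooled as others. Epha2 widens from 21.3% of the receptors in the control to 79.9% in the mutant, and Efnb1 narrows from 32.9% to 16.3% of the ephrins.

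Ratios between genes of one library do not depend on how the libraries are scaled. For 7 pairs the change in this ratio was computed with an exact conditional interval of the counts, and the pairs were chosen with the values of their genes known. The change does not depend on transcript length, but the ratio within a library does. With the mean in place of the longest length, Epha2 to Efna1 was 4.46 and 22.3, Epha2 to Efnb1 was 1.33 and 19.2, and Ephb3 to Ephb4 was 0.473 and 1.36, so the order of Epha2 and Efnb1 in the control, and of Ephb3 and Ephb4 in the mutant, turned with the length used. Epha2 stood at 1.83 times the per-length level of Efna1, the gene of its main ligand, in the control and at 9.15 times in the mutant, a 5.01-fold change (4.20 to 5.98). Against Efnb1 the ratio was 0.809 and 11.6, a change of 14.4-fold (12.6 to 16.4), and against Ephb6 it was 0.381 and 11.7, a change of 30.8-fold (27.3 to 34.7). The ratio of Ephb4 to Efnb2, a receptor and its ligand, was 0.404 in the control and 0.358 in the mutant. Its change of 0.885 (0.777 to 1.01) has an interval that includes equality.

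Efnb1 and Efnb2 had nearly equal per-length levels in the control, with a ratio of 0.996 by the longest transcripts, and a ratio of 0.360 in the mutant. That change was 2.77-fold downward (2.42 to 3.17). Ephb3 stood at 0.261 of the per-length level of Ephb4 in the control and at 0.754 in the mutant, a 2.88-fold change (2.38 to 3.50). Against Efnb1, Ephb3 stood at 0.106 and 0.751, a 7.07-fold change (5.81 to 8.61). Of the 7 changes, only that of Ephb4 to Efnb2 had a counting interval that includes equality.

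A list of 45 signalling partners held proteins that carry, end or clip Eph and ephrin signals. Of these, 39 were measured, with 3 called higher and 0 lower and a median log2 ratio of 0.21, against 6.98% and 8.29% of all measured genes called. The median was 0.10 with total counts and 0.08 with totals that omit the 100 most abundant genes. The genes called higher were Ngef, with 15 and 149 counts (13.2-fold, 7.76 to 24.2), Arhgef16, with 2 and 31 (20.6-fold, 5.25 to 178), and Pard6b, with 6 and 59 (13.1-fold, 5.67 to 37.1). Ngef and Arhgef16 encode ephexins, guanine nucleotide exchange factors that bind EphA receptors, and Pard6b encodes a cell polarity protein of the family that can bind ephrin-B1. All 3 passed the minimum of 20 counts through the mutant library.

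The 36 uncalled partners had ratios from 0.446 (0.358 to 0.553) for Ptpn13 to 2.19 (1.98 to 2.43) for Dok1. The uncalled partner with the most counts in each role, with no regard to length, had a ratio between 0.811 and 1.61. The exchange factor gene Itsn1 had a ratio of 0.871 (0.821 to 0.924) and the adaptor gene Grb10 one of 0.889 (0.859 to 0.920). For Ryk, a kinase-like receptor that associates with EphB receptors, it was 0.811 (0.779 to 0.844). The lipid phosphatase gene Inppl1, whose product SHIP2 binds EphA2, stood at 1.61 (1.53 to 1.70). Sdcbp, which encodes the PDZ protein syntenin that binds ephrin-B tails, stood at 1.06 (1.02 to 1.11), and the membrane protease gene Mmp14 at 1.14 (1.10 to 1.17).

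**Figure D4:**
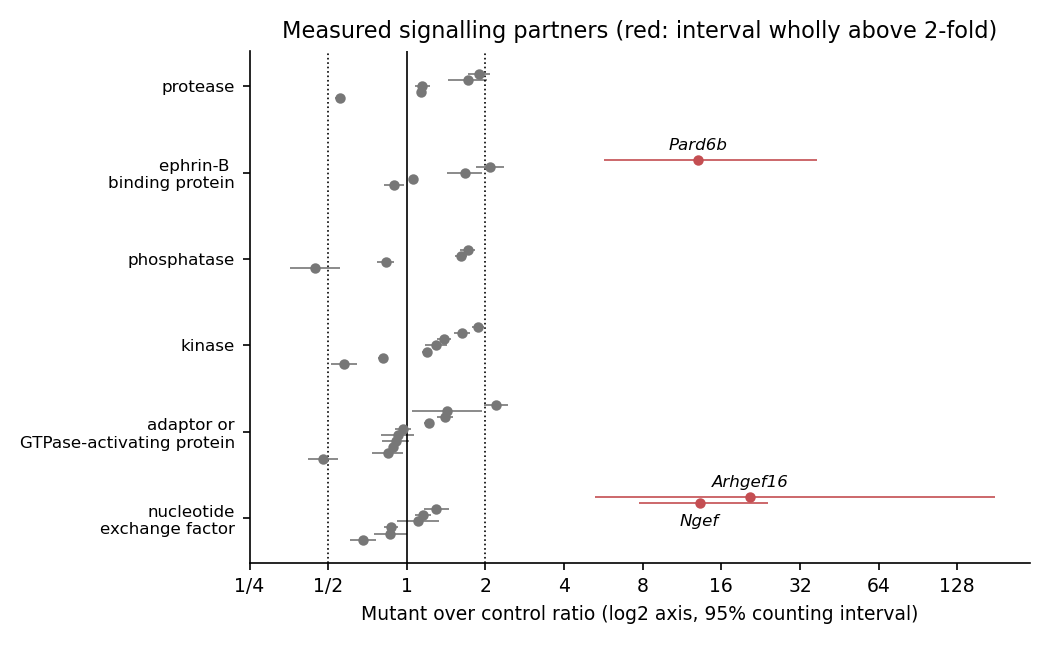
Mutant over control ratio of the 39 measured signalling partners by role on a log2 axis, with 95% counting intervals and dotted lines at 2-fold. The red points Ngef, Arhgef16 and Pard6b lie between ratios of 13.1 and 20.6, and the other 36 partners have intervals that are not wholly beyond 2-fold.

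Other cells can carry these genes, so their markers were read in the same libraries. Endothelial cells express Efnb2 and Ephb4. The 10 endothelial markers summed to 35 control and 43 mutant counts (1.51 and 2.47 CPM), with Cldn5 and Tie1 at 0 in both, Pecam1 at 5 and 2, Kdr at 0 and 14 and Erg at 10 and 15. Epithelial cells express Epha1, Epha2 and Ephb3, and their 10 markers summed to 3 and 6 counts, with Epcam, Krt8, Krt18 and Grhl2 at 0 in both. The 12 haematopoietic and myeloid markers summed to 8.99 CPM against 51.9 CPM for the mutant, where 8 of the 10 measured were called higher and 0 lower. Those 8 had under 20 control counts each and passed the minimum with their mutant counts. Csf1r, which was not called, alone held 6.44 of the 8.99 CPM in the control and 13.2 of the 51.9 CPM in the mutant. Ptprc, the gene of CD45, had 1 and 12 counts. The part of these cells in the differences above was not tested. The 10 neuronal and glial markers summed to 781 and 360 counts, with 4 at 0 in each library, among them Sox10 and Snap25. The 7 erythroid markers summed to 10 and 4 counts. Of 7 osteoblast markers 4 were measured and 0 were called, with Ibsp at 0 in both libraries and Sp7 and Bglap at 0 and 1. Of the measured ones, Col1a1 had 131912 and 173952 counts (ratio 1.75), and Runx2 had 442 and 560 (ratio 1.685). Dmp1 had 69 and 17 (ratio 0.328), and Alpl had 13 and 12 (ratio 1.23). Of these, only Alpl had an interval that includes equality.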

How the data were processed

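The deposited file holds raw counts per Ensembl gene, whole numbers that the authors had not normalized. CASAVA, TopHat, edgeR and the build mm9 are named without roles or versions in the submitters' processing notes. The read counter, annotation release, strand setting and any pooling of animals were not stated in those notes or labels, so reads of overlapping genes can be shared. A symbol was found for 34490 of 35275 identifiers in the supplied name table. Transcript lengths and GC content come from GENCODE M21 and promoter windows from RefSeq, both on another build, so only those windows carry coordinates.

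TMM factors (1.036 for control, 0.965 for mutant) were computed with edgeR 4.0.16 in R 4.3.3, and intervals in SciPy 1.17.1. Medians of log2 ratios use a prior count of 0.5 per library. Alternatives were other scalings, DESeq2 1.42.0 size factors included, other count minimums, thresholds, interval levels, prior counts and lengths, and a smooth trend over length and GC content taken off with mgcv 1.9.3.

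The 10 genes and the lists were chosen with earlier results of these data known. All family genes are named, as are the called partners and the uncalled partner with the most counts in each role. The uncalled partners with the lowest and the highest ratio are named too. Markers are given by list with some of their genes, and some marker results are not reported here.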

Additional observations from a re-analysis of the deposited data

How the results depend on the processing

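The calls of Epha2 (higher) and Efnb1 (lower) held under the 4 other scalings, without the trends over length and GC content, with either other minimum count and with a 99% interval, and were lost when the interval had to lie beyond 4-fold, where 0 of the 10 genes were called higher and 0 lower. The genes called lower were 1 instead of 2, with Epha4 the one lost, without the trends over length and GC content, at a minimum of 100 counts and with a 99% interval. Beyond 1.5-fold Ephb4 was called lower too. Of the other family genes, 2 were called lower beyond 4-fold, and 1, Efnb3, was called higher beyond 1.5-fold. Of the signalling partners, 1 (Cbl) was called lower with totals that omit the 100 most abundant genes, 1 (Ngef) was called higher at a minimum of 100 counts, and 10 were called higher and 4 lower beyond 1.5-fold. Over all measured genes 917 were called higher and 1090 lower, against 2063 and 2046 beyond 1.5-fold and 223 and 265 beyond 4-fold. Of these calls 45.7% were higher, and 35.5% with the totals that omit those 100 genes, which moves every log2 ratio by -0.13 (total counts move it by -0.10). The cause of these changes, beyond the stricter or looser rule itself, was not tested. The mean transcript length raised the control level of Epha2 from 20.2 to 53.4 CPM per kilobase and that of Ephb3 from 2.65 to 5.19, so the ranks of different genes depend on the length used. Counting depth limits Epha3, Epha4 and Ephb2, whose intervals span several fold. No paired analysis was possible because each genotype has only 1 library, and no test was made.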

Other observations

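Ephb6 and Epha1, the family genes with the lowest ratios, lie on the same stretch of mouse chromosome 6, with 24 RefSeq genes between them. The genes in between were looked up after the values of both were seen. Of these, 18 were in the table and 6 were measured, with 2 called lower and 0 higher and log2 ratios from -4.72 to -0.08 (median -0.81). Trpv6, a calcium channel gene and the next RefSeq gene after Ephb6, had 192 control and 5 mutant counts and was 28.9-fold lower (12.2 to 89.9). Gstk1, which encodes a glutathione transferase, with 125 and 17 counts, was 5.53-fold lower (3.32 to 9.79). Zyx (43801 and 16543 counts), whose product zyxin sits at focal adhesions and whose exons overlap those of Epha1, was 1.99-fold lower (counting interval up to 2.03) and not called. Fam131b had 902 and 438 counts, Casp2 627 and 446, and Clcn1 24 and 13, none of them called. The log2 ratios of all 6 measured genes were below 0, and Fam131b was 1.55-fold lower (1.38 to 1.74). The ratios of Casp2 (0.836 to 1.07) and Clcn1 (0.337 to 1.47) had intervals that include equality. By the same rule 8.29% of all measured genes were called lower. Whether the stretch differed as a whole was not tested.

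The class A ephrin genes Efna1, Efna3 and Efna4 are neighbours on chromosome 3. The ratio was 0.689 (0.582 to 0.814) for Efna1, 0.927 (0.520 to 1.63) for Efna3 and 0.356 (0.278 to 0.452) for Efna4, whose interval alone did not overlap the others.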
